A study of Mus musculus with 12 samples.

Results

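Duox1 and Prdx2 encode a maker and a remover of hydrogen peroxide, and each was followed through 1 array probe in mouse podocytes with or without METTL3 knockdown. Both were taken by probe name, A_51_P475138 for Duox1 and A_51_P147207 for Prdx2, which are 2 of the 60691 transcript probes on the array and 2 of the 45 that could be given a gene symbol. Cells of MPC5, a conditionally immortalised mouse podocyte line, received either the control siRNA (siNC) or an siRNA against METTL3 (Si#METTL3). All of them were then kept in 30 mmol/L glucose for 24 h, so both groups share the high glucose. Each of 6 arrays, 3 control and 3 knockdown, carried the immunoprecipitated RNA (IP) of a culture in Cy5 and its supernatant RNA (Sup) in Cy3. In both groups the sample name of replicate 3 follows another pattern than those of replicates 1 and 2. The name of knockdown replicate 2 extends that of knockdown replicate 1, and the labels do not say what these names mean. The design text calls the replicates biological. All come from 1 cell line, and dyes were not swapped, so a probe's own dye bias stays in its ratio and drops out only of the difference between groups.

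METTL3 is the catalytic subunit of the complex that writes N6-methyladenosine (m6A) into RNA. The labels do not name the antibody, and because this array format is sold for m6A work, IP is taken to be RNA enriched for that mark. Duox1 is a dual oxidase, a membrane NADPH oxidase that releases hydrogen peroxide and needs its maturation factor Duoxa1 to reach the cell surface. Prdx2 is a cytosolic peroxiredoxin that reduces hydrogen peroxide and is itself restored by thioredoxin. NADPH oxidases are a known source of oxidants in podocytes held in high glucose.

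No probe on the array was named Mettl3, so the loss of METTL3 was not analysed here and the knockdown arrays are known as such from their labels alone. None of the 9 podocyte markers looked for and none of the markers of mesangial, endothelial, tubular, macrophage or fibroblast cells had a named probe, so the cell type was not checked. Across arrays, 35.1% to 50.3% of transcript probes were well above background in Cy5 and 75.1% to 81.2% in Cy3. Control replicate 2 stood apart: it was scanned separately, had the lowest Cy5 share, and the 75th percentile of its summed signal was 7.72 on the log2 scale against 8.92 to 9.56 on the other 5 arrays.

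Duox1 is annotated on chromosome 2 from 122313010 to 122347972 and Prdx2 on chromosome 8 from 84969622 to 84974811 (mouse assembly GRCm38.p6). The transcript that the files give for each probe is one that RefSeq assigns to that gene. Where in the transcript a probe lies is not given, since neither the probe sequences nor the transcript sequences were available. Prdx2 has 2 annotated pseudogenes, Prdx2-ps1 on chromosome 1 and Prdx2-ps2 on chromosome 4, and whether its probe also binds RNA from them was not tested. The 250 bases before each gene's start site are shown as sequence only, and a link to the RNA levels was not tested. They come from RefSeq (GRCm38.p6, plus strand, 5′ to 3′), and capitals mark CG dinucleotides. The Duox1 window, chr2:122315422-122315671, lies inside the annotated span of the gene, ahead of a start site at 122315672. The Prdx2 window is chr8:84969372-84969621.
Duox1: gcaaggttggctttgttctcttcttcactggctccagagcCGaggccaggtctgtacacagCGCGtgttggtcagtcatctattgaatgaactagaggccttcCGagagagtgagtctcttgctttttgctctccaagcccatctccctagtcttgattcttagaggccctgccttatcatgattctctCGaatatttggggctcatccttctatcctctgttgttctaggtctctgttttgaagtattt
Prdx2: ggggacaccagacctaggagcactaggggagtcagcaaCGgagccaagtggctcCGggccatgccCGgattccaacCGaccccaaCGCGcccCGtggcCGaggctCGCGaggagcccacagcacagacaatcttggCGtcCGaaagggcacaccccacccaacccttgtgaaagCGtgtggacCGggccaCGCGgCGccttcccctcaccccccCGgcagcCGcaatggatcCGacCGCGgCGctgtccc
The Duox1 window held 5 CG dinucleotides and 47.6% G or C, and the Prdx2 window 23 and 69.2%, where the medians of 32851 such windows were 6 and 52.4%. Fewer CG dinucleotides were found in 44.4% of all windows than in that of Duox1 and in 86.7% than in that of Prdx2. On either strand, neither window held the antioxidant response element core TGACNNNGC, the GC box GGGCGG, the CCAAT box CCAAT, the TATA box TATAAA or the E-box CACGTG. Of all windows, 10.2%, 32.7%, 33.8%, 12.4% and 6.02% held them in that order, which says only that these letters are not in these stretches.

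Both probes were printed in 10 spots per array and gave signal well above background in Cy5 and Cy3 in every spot that was kept, on all 6 arrays. None of their spots was saturated. On control replicate 2 the scanner software flagged 4 of the 10 spots of each probe as outliers in Cy5, which left 6 there. The other arrays kept 9 or 10 in each channel.

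Duox1 gave more IP than Sup signal on each array after the scanner software had brought the dyes to a like level. In the control its Cy5 signal was 2986, 2489 and 2837 (replicates 1 to 3), and in the knockdown 3561, 2874 and 2825. Knockdown replicate 1 was the highest and control replicate 2 the lowest, and the groups overlapped. Its Cy3 signal reached 2442, 1851 and 2462 on the control arrays and 2734, 2162 and 1811 on the knockdown arrays. The groups overlapped here too, with knockdown replicate 3 as the lowest. The sum of both dyes, which overlapped as well, was 5429, 4340 and 5299, then 6295, 5036 and 4636, with means of 5022 ± 595 and 5322 ± 866 (SD, n = 3).

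Prdx2 gave more Sup than IP signal on every array. In the control its Cy5 signal was 6037, 4986 and 6466, and in the knockdown 4633, 4890 and 5485, with overlapping groups. Its Cy3 signal was 11615, 7568 and 13723, then 10334, 9365 and 10342. Control replicate 2 was the lowest array in Cy3 and control replicate 3 the highest, and all 3 knockdown arrays lay between them. The sum was 17652, 12554 and 20189 on the control arrays and 14967, 14255 and 15826 on the knockdown arrays, with means of 16798 ± 3889 and 15016 ± 787 (SD, n = 3).

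**Figure D1:**
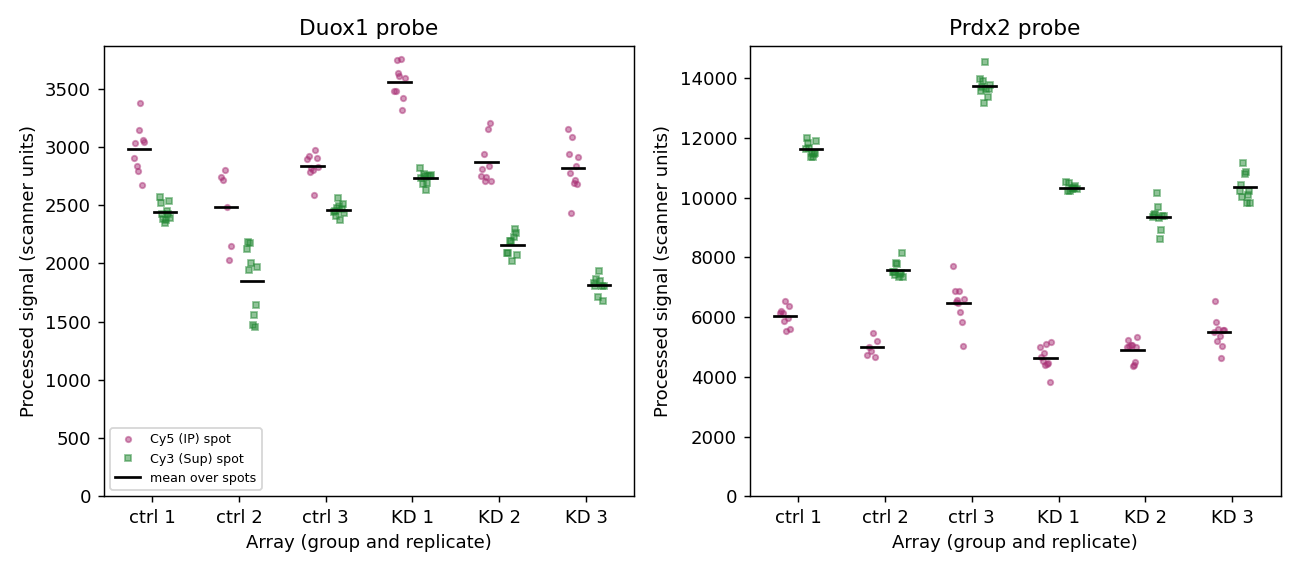
Processed signal in scanner units of each kept spot of the Duox1 probe (left) and the Prdx2 probe (right) on each array, with Cy5 (IP) as circles, Cy3 (Sup) as squares and bars at the mean over spots. Cy5 lies above Cy3 for Duox1 and below it for Prdx2 on all 6 arrays, and the Duox1 spots of control replicate 2 spread more widely than those of the other arrays.

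The IP share of the summed signal put the genes on opposite sides of 50%. For Duox1 it was 55.0%, 57.3% and 53.5% on the control arrays and 56.6%, 57.1% and 60.9% on the knockdown arrays, so its mean went from 55.3% ± 1.92 to 58.2% ± 2.39 (SD, n = 3), by 2.89 points (exact permutation test, two-sided, p = 0.3). Prdx2 had shares of 34.2%, 39.7% and 32.0%, then 31.0%, 34.3% and 34.7%, with means of 35.3% ± 3.96 and 33.3% ± 2.04 (SD, n = 3), -2.01 points apart (exact permutation test, two-sided, p = 0.6). For both genes the groups overlapped. For Duox1 this rests on the 57.3% of control replicate 2, where the Cy5 mean took 6 spots and the Cy3 mean 10. An exact permutation test of 3 arrays against 3 cannot go below p = 0.1. Dye bias of each probe stays in these shares, so they do not rank the methylation of the genes.

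The side of Duox1 differed before dye normalization. There, the log2 ratio of its background-subtracted Cy5 to Cy3 signal was -0.78, 0.13 and -1.11 on control arrays and -0.45, 0.15 and -1.06 on knockdown arrays, so Sup was the brighter dye on 4 of the 6. Prdx2 was brighter in Sup on all 6 arrays there too, at -1.66, -0.46 and -1.93, then -1.66, -0.86 and -2.26. Over all probes well above background the array median of the same ratio ran from -1.69 to -0.31. These values before dye normalization differed between the groups by 0.14 for Duox1 and by -0.24 for Prdx2 (exact two-sided permutation p = 0.7 and 0.6), and the SD within a group was between 0.61 and 0.78.

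The IP-to-Sup ratio, read as a relative methylation level, was higher for Duox1 and lower for Prdx2 in the knockdown on average, and neither difference passed the test. Values are log2 of IP over Sup less the array median over tested probes. Duox1 stood at 0.18, 0.41 and 0.15 on control arrays and 0.27, 0.29 and 0.55 on knockdown arrays. The lowest knockdown array lay above control replicates 1 and 3 but under control replicate 2, so the groups overlapped. That overlap rests on control replicate 2, whose value sets a Cy5 mean of 6 spots against a Cy3 mean of 10. Before centring it was 0.43, above the highest ratio of any spot kept in both dyes there, 0.37. The means were 0.25 ± 0.14 and 0.37 ± 0.16 (SD, n = 3), and the knockdown was 0.12 higher, with 95% limits of -0.30 and 0.54 (limma, unadjusted p = 0.519, adjusted p = 1.00).

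Prdx2 had ratios of -1.05, -0.62 and -1.14 on control arrays and -1.27, -1.06 and -1.0 on knockdown arrays. Control replicate 2 was the highest of the 6, and the remaining 5 arrays lay close together in both groups. The means were -0.94 ± 0.28 and -1.11 ± 0.14 (SD, n = 3), and the difference was -0.17, with 95% limits of -0.64 and 0.30 (limma, unadjusted p = 0.420, adjusted p = 1.00). Both genes thus overlapped between groups, where 4.06% of 25228 probes measured on all arrays lay wholly lower in the knockdown and 3.69% wholly higher. Of the 27742 probes tested, the mean was lower in the knockdown in 51.1% and higher in 48.9%. Limma found 0 of them (0%) past the adjusted threshold of 0.05 and 834 (3.01%) past it unadjusted. With each channel quantile-normalized the difference of Prdx2 was -0.52 (limma, unadjusted p = 0.0388, adjusted p = 0.948) and that of Duox1 -0.02, while without control replicate 2 that of Prdx2 was -0.01.

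The SD of log2(Cy5/Cy3) over spots of 1 array was 0.056 to 0.10 for Duox1 and 0.083 to 0.15 for Prdx2. On control replicate 2 the log2 Cy3 signals of the Duox1 spots had an SD of 0.24, against 0.028 to 0.063 on the other arrays. There the Cy5 mean rests on 6 spots and the Cy3 mean on 10, and leaving out the same spots in both dyes, with log2 values averaged, moved the Duox1 difference in ratio from 0.12 to 0.16.

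IP RNA of both genes, log2 of Cy5 less the array's 75th percentile, was lower in the knockdown on average. Neither passed the test. Prdx2 stood at 4.27, 5.57 and 4.48 on control arrays and 3.66, 4.36 and 4.44 on knockdown arrays, with control replicate 2 the highest and knockdown replicate 1 the lowest. The means were 4.77 ± 0.70 and 4.15 ± 0.43 (SD, n = 3), and the difference was -0.62, with 95% limits of -1.54 and 0.30 (limma, unadjusted p = 0.157, adjusted p = 0.777). Duox1 stood at 3.26, 4.56 and 3.29, then 3.28, 3.59 and 3.49, so that all 3 knockdown arrays lay between control replicates 1 and 2. The means were 3.70 ± 0.75 and 3.45 ± 0.16 (SD, n = 3), -0.25 apart, with 95% limits of -1.12 and 0.62 (limma, unadjusted p = 0.524, adjusted p = 0.872).

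Both IP differences moved when control replicate 2 was left out, that of Duox1 to 0.18, with its sign changed, and that of Prdx2 to -0.22. The median difference of all tested probes was -0.16, and less that median the differences with all arrays were -0.09 for Duox1 and -0.46 for Prdx2. The groups of both genes overlapped, where 10.2% of 25297 probes lay wholly lower in the knockdown and 2.3% wholly higher. A lower mean, as both genes had, was shared by 67.8% of the 27796 probes tested, and 32.2% had a higher one. The median difference was 0.19 with spike-in scaling and 0.06 with the authors' constants, so the lower direction over all probes holds for the percentile scaling and not for these. Limma found 0 of these (0%) past the adjusted threshold and 1310 (4.71%) past it unadjusted.

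Sup RNA, the same measure in Cy3, was also lower on average for both, again without passing the test. Duox1 had 2.79, 3.92 and 2.94 on control arrays and 2.83, 3.11 and 2.77 on knockdown arrays, and Prdx2 had 5.04, 5.95 and 5.42, then 4.75, 5.22 and 5.28. For both genes control replicate 2 was the highest array and the groups overlapped. The difference was -0.31 for Duox1, with 95% limits of -1.02 and 0.39 (limma, unadjusted p = 0.332, adjusted p = 1.00), and 0.04 without control replicate 2. For Prdx2 it was -0.39, with 95% limits of -1.01 and 0.24 (limma, unadjusted p = 0.193, adjusted p = 1.00), -0.14 without control replicate 2 and 0.07 with each channel quantile-normalized. Of 48311 probes, 3.61% lay wholly lower in the knockdown and 1.53% wholly higher, and of the 48520 tested, 63.4% had a lower mean there and 36.6% a higher one. Limma found 0 (0%) past the adjusted threshold and 585 (1.21%) past it unadjusted, and with the replicate number as a block 0 and 3499.

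Total RNA adds up IP and Sup after dye normalization, so it is no separate observation. Fewer cells that express a gene and less of its RNA per cell cannot be told apart in it. For Prdx2 it was 4.77, 5.89 and 5.09 on control arrays and 4.31, 4.88 and 4.94 on knockdown arrays, log2 less the array's 75th percentile. The means were 5.25 ± 0.58 and 4.71 ± 0.35 (SD, n = 3), and Prdx2 was lower by a difference of -0.54, with 95% limits of -1.27 and 0.19 (limma, unadjusted p = 0.128, adjusted p = 0.803). Most tested probes had a lower mean in the knockdown, 73% in total RNA, 63.4% in Sup RNA and 67.8% in IP RNA. How many probes were lower in every pair of equal replicate number was not counted, so the pair counts have no share to be set against. Prdx2 was lower in the knockdown in 3 of 3 pairs of equal replicate number, in total RNA as in Sup RNA, and Duox1 in 2 of 3 in both. In IP RNA Prdx2 was lower in 3 of 3 such pairs and Duox1 in 1 of 3. With the number as a block, the difference of Prdx2 in total RNA had 95% limits of -1.07 and -0.01 (limma, unadjusted p = 0.0471, adjusted p = 0.530). Of all tested probes, 10.4% had a lower difference, and less the median difference of all probes, -0.15, that of Prdx2 was -0.39. That last value was -0.10 without control replicate 2, -0.17 without knockdown replicate 1, -0.61 without control replicate 1 and -0.10 with each channel quantile-normalized.

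Total RNA of Duox1 was 3.07, 4.36 and 3.16 on control arrays and 3.06, 3.38 and 3.17 on knockdown arrays. Apart from control replicate 2, the 5 arrays lay between 3.06 and 3.38. The means were 3.53 ± 0.72 and 3.20 ± 0.16 (SD, n = 3), and these were -0.33 apart, with 95% limits of -1.11 and 0.46 (limma, unadjusted p = 0.367, adjusted p = 0.840). Without control replicate 2 it was 0.09, and that of Prdx2 -0.22. The groups of both genes overlapped, where 10.6% of 45721 probes lay wholly lower in the knockdown and 1.37% wholly higher. Of the 48262 probes tested, 73% had a lower mean there, as both genes did, and 27% a higher one. Limma found 0 (0%) past the adjusted threshold and 2278 (4.72%) past it unadjusted, and with the replicate number as a block 0 and 4530.

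**Figure D2:**
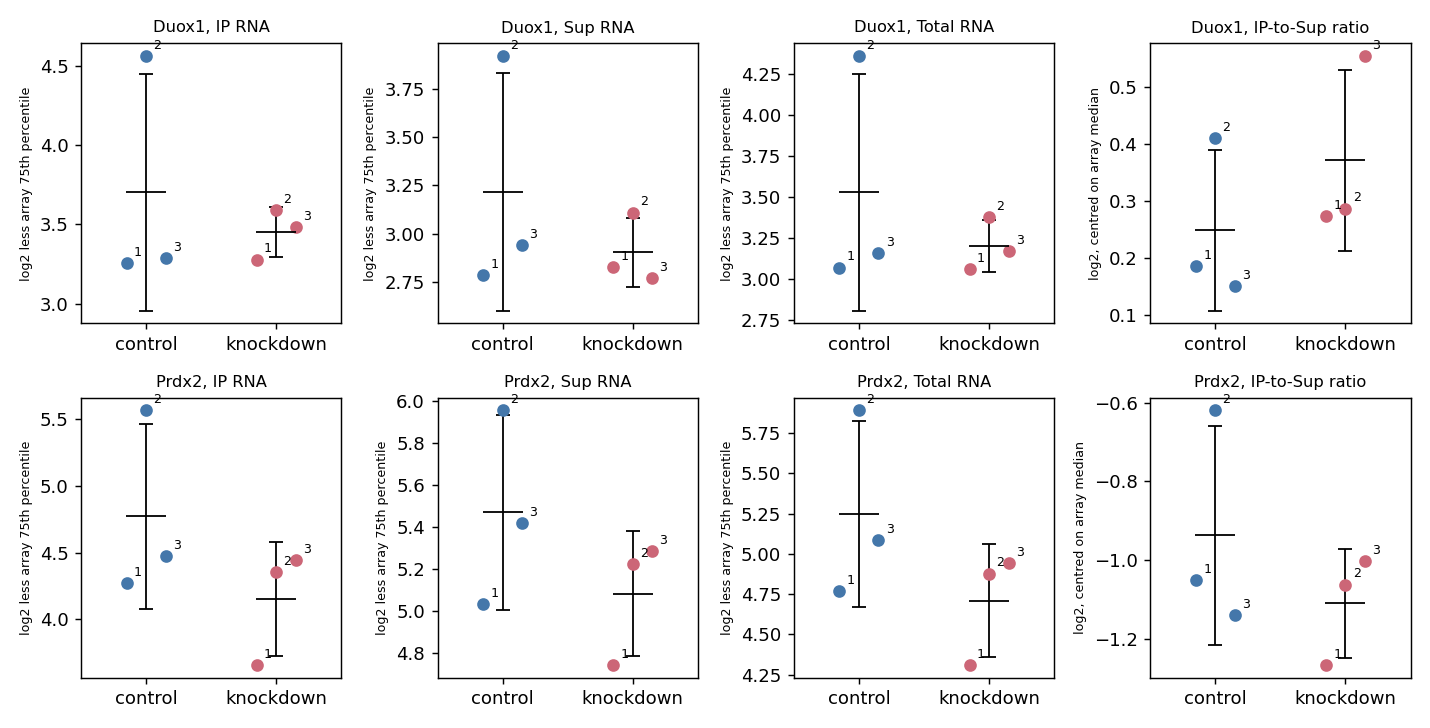
Levels per array (points, with the replicate number) of Duox1 (top) and Prdx2 (bottom) in control and knockdown arrays, as log2 less the array's 75th percentile for IP, Sup and total RNA and as log2(IP/Sup) centred on the array median for the ratio; bars are the mean ± SD of 3 arrays. The groups overlap in all 8 panels, and control replicate 2 is the highest control array in each.

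Where control replicate 2 stood among the arrays depended on the step. In background-subtracted signal, before dye normalization, it was the highest of the 6 arrays for both genes in both dyes. There Duox1 had 1075 in Cy5 against 285 to 718 on the other arrays and 985 in Cy3 against 586 to 646. Prdx2 had 2467 in Cy5 against 638 to 1426 and 3393 in Cy3 against 2021 to 3283. In the processed signal, which the scanner software had multiplied by its dye factors, the sum on control replicate 2 was the lowest of the 6 for both, 4340 for Duox1 and 12554 for Prdx2. Its 75th percentile was lower by 1.20 to 1.83 on the log2 scale than that of the other arrays, and less the percentile both genes were again highest there.

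With the constants of the authors' deposited table in place of the percentile, and outlier spots kept as there, the difference in total RNA was -0.07 for Duox1 and -0.29 for Prdx2. Scaled to 2 ERCC spike-in probes it was -0.02 for Duox1 and -0.23 for Prdx2. The split of all probes at an unadjusted p under 0.05 (limma) moved between settings as well. In total RNA 155 were higher and 2123 lower in the main setting, 439 and 639 with outlier spots kept, 254 and 113 with the spike-in probes, and 518 and 160 with the authors' constants, which cover 27865 tested probes. In IP RNA these pairs of counts were 201 and 1109, 392 and 350, 142 and 23, and 604 and 147. In Sup RNA they were 80 and 505, 94 and 472, 161 and 148, and 151 and 88.

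Duox1 and Prdx2 were among each other's nearest named probes in the course of total RNA over the 6 arrays. Nearness was the root mean square difference of values less their own mean over the arrays, taken against 26 named probes well above background in both dyes on all arrays. For Duox1 the nearest were Gsdmd, which encodes the pore-forming protein of pyroptosis, at 0.12, Tm9sf1 at 0.17 and Prdx2 at 0.22. For Prdx2 they were Tm9sf1 at 0.20, H2-M2, a class I histocompatibility gene, at 0.20 and Duox1 at 0.22. These 5 genes were all highest on control replicate 2, where Gsdmd stood at 4.94, Tm9sf1 at 4.92 and H2-M2 at 2.25. Most of the other named probes compared were highest there too, so this peak is not particular to the 5. The nearest probes were also picked on this same course. Total RNA differences between the groups were -0.40 for Gsdmd, -0.40 for Tm9sf1 and -0.43 for H2-M2. All these values share the scaling of each array.

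**Figure D3:**
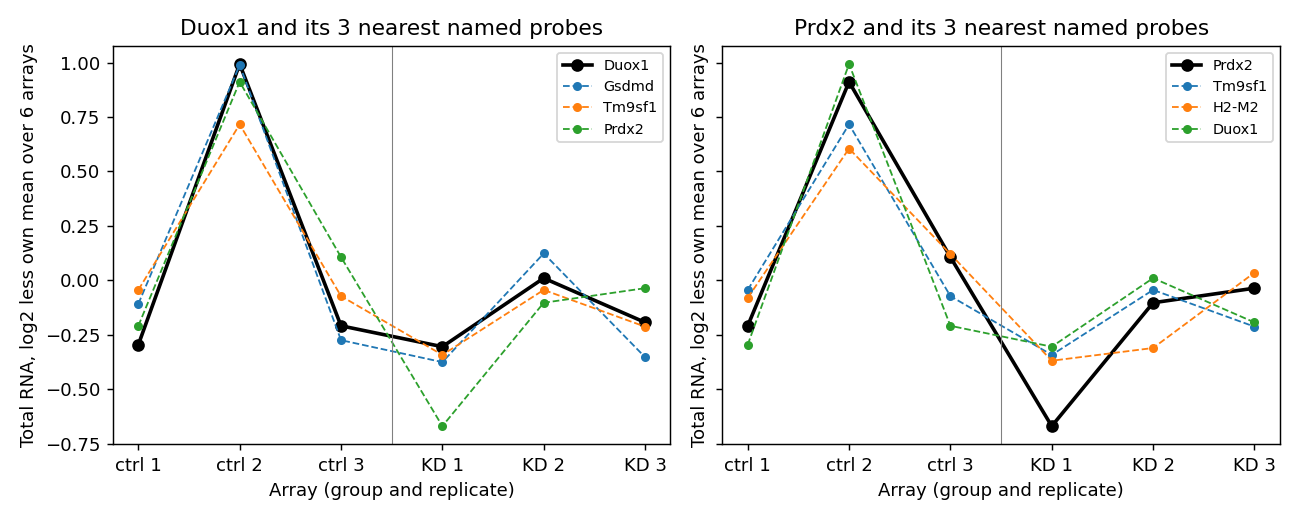
Total RNA on each array, as log2 less the gene's own mean over the 6 arrays, for Duox1 (left) and Prdx2 (right) with the 3 named probes nearest to each; lines only join the values of a gene, since arrays have no order. Every gene shown peaks on control replicate 2, as do most of the other named probes compared, and Prdx2 is lowest on knockdown replicate 1.

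The difference between the genes within an array is free of that scaling, since 1 array's constant falls on both probes alike. It is not free of the lowess dye balance, which depends on intensity, and Prdx2 was the brighter probe. With each channel quantile-normalized, the difference between the groups in the ratio was 0.50 (exact two-sided permutation p = 0.1). Duox1 less Prdx2 was computed after the values of both genes had been seen. For the IP-to-Sup ratio, Duox1 less Prdx2 was 1.23, 1.03 and 1.29 on control arrays and 1.54, 1.35 and 1.56 on knockdown arrays. Each knockdown array lay above each control array. The means were 1.18 ± 0.14 and 1.48 ± 0.12 (SD, n = 3), a difference of 0.30 (exact two-sided permutation p = 0.1, the smallest possible). Among 351 pairs of named probes, which share probes and are not independent, the groups did not overlap in 23 (6.55%). The size of a level in 1 probe against the other has no meaning here, and only its difference between the groups is read.

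In IP RNA, Duox1 less Prdx2 was -1.02, -1.0 and -1.19 on control arrays and -0.38, -0.77 and -0.96 on knockdown arrays. Again the groups did not overlap, with means of -1.07 ± 0.10 and -0.70 ± 0.29 (SD, n = 3) and a difference of 0.37 (exact two-sided permutation p = 0.1, the smallest possible); among the 351 pairs this held for 35 (9.97%). Median signals over spots gave p = 0.2 for both the ratio and IP RNA, and each channel quantile-normalized gave p = 0.3 for IP RNA (exact permutation tests). In Sup RNA the values were -2.25, -2.03 and -2.48, then -1.92, -2.11 and -2.51, a difference of 0.07 with groups that overlapped (exact two-sided permutation p = 0.8). In total RNA they were -1.70, -1.53 and -1.93, then -1.25, -1.50 and -1.77, a difference of 0.21 with groups that overlapped (exact two-sided permutation p = 0.4). Groups did not overlap in 16 of the 351 pairs in Sup RNA (4.56%) and in 19 in total RNA (5.41%). The ratio is the IP value less the Sup value, so its p of 0.1 in the exact permutation test is also that of the gap between IP and Sup. None of this shows that either gene changed, or which of them. These comparisons were 4, and after Benjamini-Hochberg adjustment over them the smallest exact permutation p was 0.2.

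**Figure D4:**
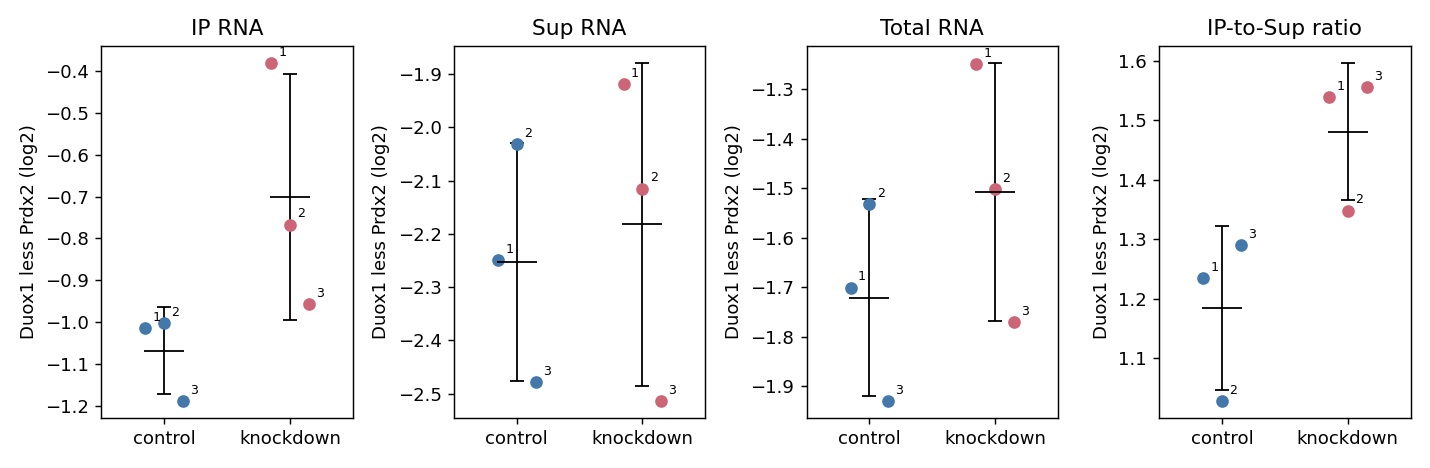
Duox1 less Prdx2 within each array (log2; points with the replicate number) for IP, Sup and total RNA and for the IP-to-Sup ratio, with the mean ± SD of 3 control and 3 knockdown arrays. All knockdown arrays lie above all control arrays in IP RNA and in the ratio, and the groups overlap in Sup and total RNA.

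Other genes of peroxide handling could not be set beside these. Of 27 listed makers of peroxide and superoxide, such as Nox4, Cybb and Duoxa1, 1 had a named probe, Duox1. Of 30 listed removers, such as Cat, Gpx1 and Prdx1, 1 had a named probe, Prdx2. None of 12 genes of the Nrf2 antioxidant response had one. Neither Duox1 nor Prdx2 passed the adjusted threshold in any measure, in either direction, where 0% of all tested probes did. Nothing is said by this of the other listed genes.

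**Figure D5:**
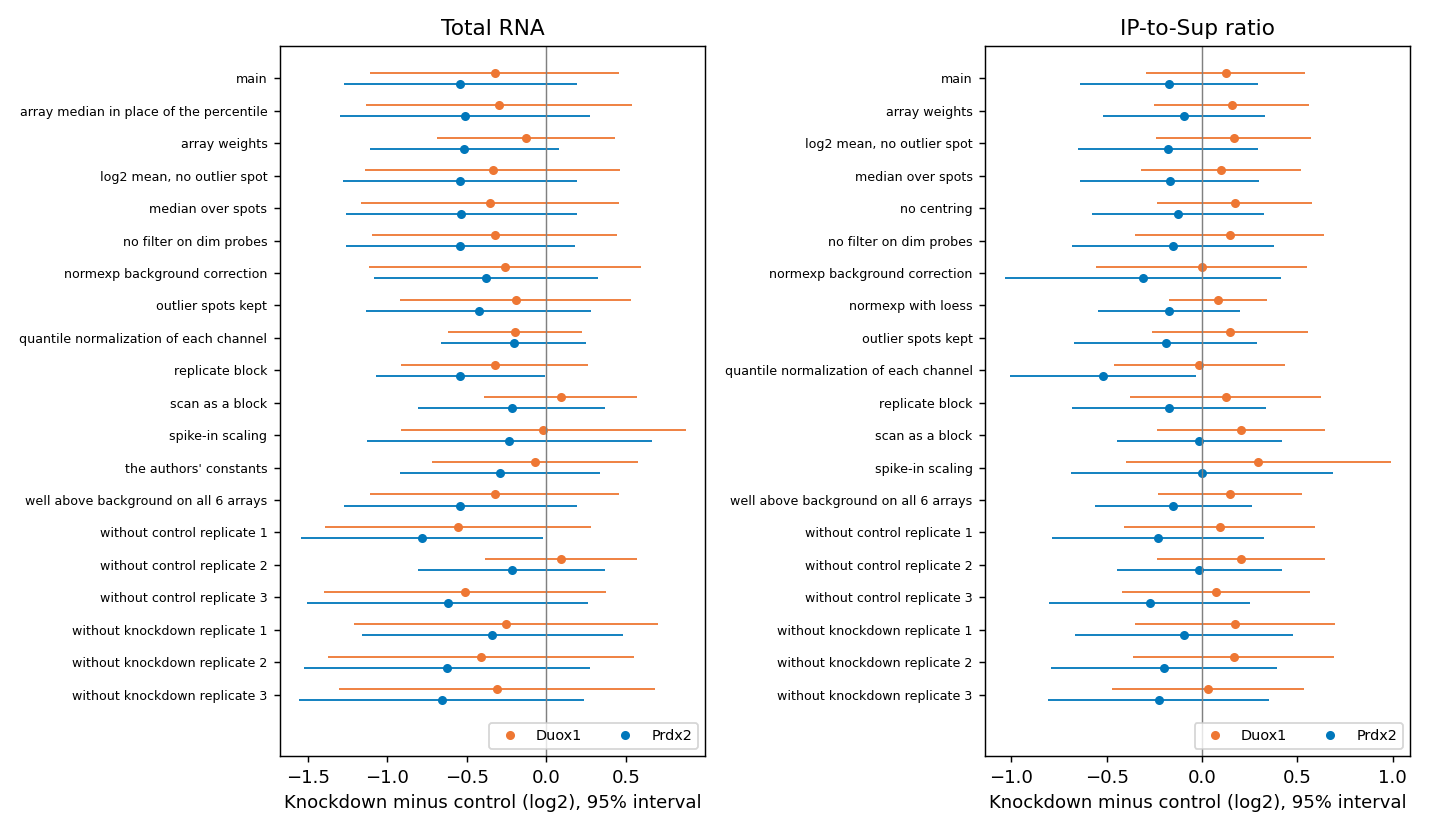
Knockdown minus control (log2) in total RNA (left) and in the IP-to-Sup ratio (right) for Duox1 and Prdx2 under the main setting and each alternative, with points at the limma estimate and lines for its 95% interval. Duox1 changes sign without control replicate 2 or with the scan as a block in total RNA, and slightly with normexp or quantile normalization in the ratio, while Prdx2 stays below 0 throughout, at -0.0011 at its closest; unadjusted intervals of Prdx2 leave out 0 with the replicate block or without control replicate 1 in total RNA and with quantile normalization in the ratio.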

How the data were processed

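The deposited scanner files hold spot intensity values written by Agilent Feature Extraction 11.0.1.1, per the file headers. Its processed signals have the background taken off and the dyes of an array balanced (linear, then lowess), so a change common to all IP-to-Sup ratios would not show. The authors' deposited table holds log2 values of 27920 probes. They equalled log2 of the mean processed signal over all spots of a probe, outliers included, up to a constant per array and channel (largest departure 5.00e-09), with column medians from 1.21 to 1.77. How the constants were set stays unknown. The headers name mouse build mm9 for the probe layout. Sequences and genes came from RefSeq tables of GRCm38.p6.

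Here outlier spots were left out per channel and the processed signals of a probe averaged. Ratios were centred on the array median of tested probes, and other levels taken less the 75th percentile. Tests took probes well above background on 3 or more of 6 arrays, in as many kept spots as not or more, in both channels for the ratio, the channel concerned for IP and Sup RNA, and either channel for total RNA. The group test was limma 3.58.1 in R 4.3.3 (files read by version 1.17.8 of data.table), with p-values adjusted by Benjamini-Hochberg over all tested probes at 0.05. The fit was tested on simulated data. Values with 1 number per array had an exact two-sided permutation test. Since the files hold no mean spot signal, normexp (offset 50) ran on median signals. Of 50 catalogue probes, 45 matched a symbol by accession.

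The genes, the lists and the tests were chosen with earlier results of these data known, and Duox1 less Prdx2, like the average of log2 values over spots with no outlier in either dye, was added after the values were seen. The rule for named genes took the 2 genes, list members with a named probe and the 3 nearest probes of each. Equal replicate numbers were taken to pair the arrays where the correlation of deviations from the group means was over 0.1 in all 3 pairs. This held for total RNA (0.180 to 0.345) and Sup RNA (0.323 to 0.582), not for the ratio (-0.0031 to 0.093) or IP RNA (0.069 to 0.303). Control replicate 3 with knockdown replicate 1, of unequal number, was over 0.1 as well, at 0.191 in total RNA and 0.291 in Sup RNA. The pairing was thus read from these same values and is not certain. IP and Sup RNA of an array come from 1 culture, so pairing cannot hold for Sup RNA and not for IP RNA. The number of arrays limits the precision.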

Additional observations from a re-analysis of the deposited data

How the results depend on the processing

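For Prdx2 the differences kept their direction under 19 alternatives in the ratio, IP RNA and total RNA, between -0.52 and -0.0011, -0.87 and -0.22, and -0.78 and -0.20. In Sup RNA it was 0.074 with each channel quantile-normalized, the 1 reversal of 19. Not all 19 are separate checks. The replicate block cannot move a probe's difference, and in IP, Sup and total RNA neither can another filter on dim probes. The scan as a block gives the same difference as leaving out control replicate 2. Duox1 reversed in IP RNA to 0.062 with array weights, 0.18 with the scan as a block, 0.12 with spike-in scaling and 0.011 with the authors' constants. It reversed with the scan as a block to 0.039 in Sup RNA and 0.090 in total RNA, and in the ratio to -0.0016 with normexp and -0.015 with quantile normalization. With an array left out, Duox1 ranged from -0.47 to 0.18 in IP RNA, -0.53 to 0.039 in Sup RNA and -0.55 to 0.090 in total RNA. Of 15 alternatives for Duox1 less Prdx2, 3 (other scaling, centring or the block) cannot move it. In IP and Sup RNA the authors' constants act only through the outlier spots kept. In total RNA the difference of Duox1 less Prdx2 was 0.218 with these constants and 0.232 with outlier spots kept. Over the other 12 it was 0.22 to 0.50 in the ratio, 0.21 to 0.50 in IP RNA and 0.0071 to 0.35 in total RNA. In Sup RNA it was -0.14 with quantile normalization and -0.061 to 0.24 with an array left out. The causes were not tested, except that the scan block takes out control replicate 2. Neither gene had an adjusted p under 0.05 under any alternative.

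The count of 0 probes at an adjusted p under 0.05 (limma) stayed 0 for the ratio. Array weights gave 2 for IP RNA, 1 for Sup RNA and 1 for total RNA. The scan as a block gave 1 each for IP and total RNA. Spike-in scaling, which rests on 2 probes, gave 14 for Sup RNA and 9 for total RNA. Leaving out an array gave 0 to 1 for IP RNA and likewise for total RNA, the 1 without control replicate 2. With the replicate block the counts stayed 0 and no call changed; the difference of Prdx2 in total RNA stayed -0.54 (limma, unadjusted p = 0.0471, adjusted p = 0.530), and the unadjusted counts rose from 585 to 3499 for Sup RNA and from 2278 to 4530 for total RNA. For the ratio and IP RNA the numbers are only numbers, and their unadjusted counts went from 834 to 909 and from 1310 to 2188. The paired exact permutation test of Duox1 less Prdx2 cannot go below p = 0.25, which it gave for the ratio, IP RNA and total RNA.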
